A study of Schizosaccharomyces pombe with 9 samples.

Results

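One end of chromosome I of the fission yeast Schizosaccharomyces pombe was followed through RNA sequencing of tra1 mutants. Its genes were taken by name: the IDs that start with SPAC1039, SPAC922, SPAC869, SPAC186 or SPAC750, which are neighbouring clones, leaving out 6 genes (isp5, atd2, cat1, put4, pfl9 and pdc102). This gave 39 of the 5129 genes in the count table. In the gene order of the reference annotation the 45 genes of these clones formed an unbroken run to the chromosome end, with no other gene of the table among them. Among the 39 was gdt1 (SPAC186.05c), and the set is called the gdt1 end here.

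The libraries came from 3 genotypes with 3 replicates each: tra1-AA (strain DHP1509, with an altered tra1 allele), tra1D (strain DHP609, with tra1 deleted) and wild type (WT, strain DHP43), all grown in the rich medium YES to mid-logarithmic phase. Each genotype was a single strain, so genotype and strain background cannot be told apart. The sequence change of tra1-AA is not given in the labels. The titles of the tra1D and WT samples carry a re-analysis mark that those of tra1-AA lack, and this mark cannot be told apart from the tra1-AA genotype. The labels do not say whether replicates were separate cultures, and every p-value therefore reflects the spread between these libraries alone, which may be technical. Poly(A) RNA was read, and 5738138 to 8101004 reads per library were assigned to genes. Levels are in CPM, which are counts set to the same library size. A count of 0 allows a level of up to 0.379 to 0.503 CPM (3 counts), depending on the library. These limits, and all intervals given below for counts, cover counting error only, since reads copied by PCR are not independent molecules. The targeted gene, tra1 (SPBP16F5.03c), had 608, 570 and 470 counts in tra1-AA, 5, 2 and 2 counts in tra1D, and 771, 704 and 561 in WT. Across all genes, 781 of 4913 passed in tra1-AA against WT and 566 in tra1D against WT (Benjamini-Hochberg adjusted p under 0.05 in edgeR's quasi-likelihood fit, the test used throughout).

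Genes next to fission yeast telomeres lie in chromatin that is kept compact and silent, and many of them are used only under starvation or other special conditions. They encode transporters, enzymes that break down unusual carbon and nitrogen sources, and proteins of unknown role. Copies of the same sequences recur at several chromosome ends. Tra1 is a subunit of SAGA, a co-activator complex that modifies histones and helps recruit the transcription machinery to promoters.

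The outermost genes of the gdt1 end that could be measured were far lower in both mutants than in WT. gdt1 fell to 6 counts over the 3 tra1-AA libraries and to 156 over the 3 tra1D libraries, against 1871 in WT. Of the 156 counts, 148 were in tra1D replicate 1. The 3 measured genes around gdt1, SPAC186.04c, SPAC186.06 and SPAC750.01, fell with it. In tra1D the calls of SPAC186.04c and SPAC186.06 were lost when some single libraries were left out. Farther in, yhb1, the gene of a nitric oxide dioxygenase that detoxifies nitric oxide, fell by 3.59-fold in tra1-AA and also in tra1D, by 2.60-fold. The other tested inner genes of the set differed from WT by smaller amounts, apart from mmf2 in tra1D. There mmf2 rose by 2.62-fold, the rise that passed. In RNA from whole cultures, fewer cells that express a gene and less RNA per cell cannot be told apart.

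Of the 39 genes, 22 had enough counts to be tested, 11 had some counts but too few, and 6 had none in any library. In tra1-AA 8 of the 22 fell and none rose (edgeR adjusted p under 0.05; 2 rose at an unadjusted p under 0.05, 1 by DESeq2, and 3 with a replicate block of the WT and tra1-AA libraries). Over all genes tested 7.96% fell and 7.94% rose in tra1-AA. In tra1D 5 of the 22 fell and 1 rose, where 6.35% of all genes fell and 5.17% rose. gdt1, SPAC186.04c, SPAC186.06 and SPAC750.01 could pass the filter on low counts only through WT, so these counts describe the tested genes and are no measure of the whole set. The median log2 fold change of the 22 was -0.13 in tra1-AA and -0.04 in tra1D, beside 0.006 and 0.004 over all genes. Both comparisons use the same WT libraries. The authors' deposited table has 7 genes of the set lower and 0 higher in tra1-AA, and 4 lower and 1 higher in tra1D, at an adjusted p under 0.05. The 4 include SPAC922.03, which did not pass in tra1D here. They leave out gdt1, which has no adjusted p there, and SPAC186.04c (the authors' DESeq2 adjusted p = 0.428).

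The ranges of the libraries were also compared without a model. In tra1-AA the libraries of 8 tested genes lay wholly below WT and those of 1 wholly above, where 14.9% and 19.8% of all genes tested did so. In tra1D 9 lay wholly below WT and 3 wholly above, where the shares of all genes tested were 15.1% and 17.6%. The genes wholly below WT in both mutants include gdt1, SPAC186.04c, SPAC186.06 and SPAC750.01, which could pass the filter only through WT. The filter thus favoured their lying below WT, and these counts too are no measure of the whole set.

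**Figure D1:**
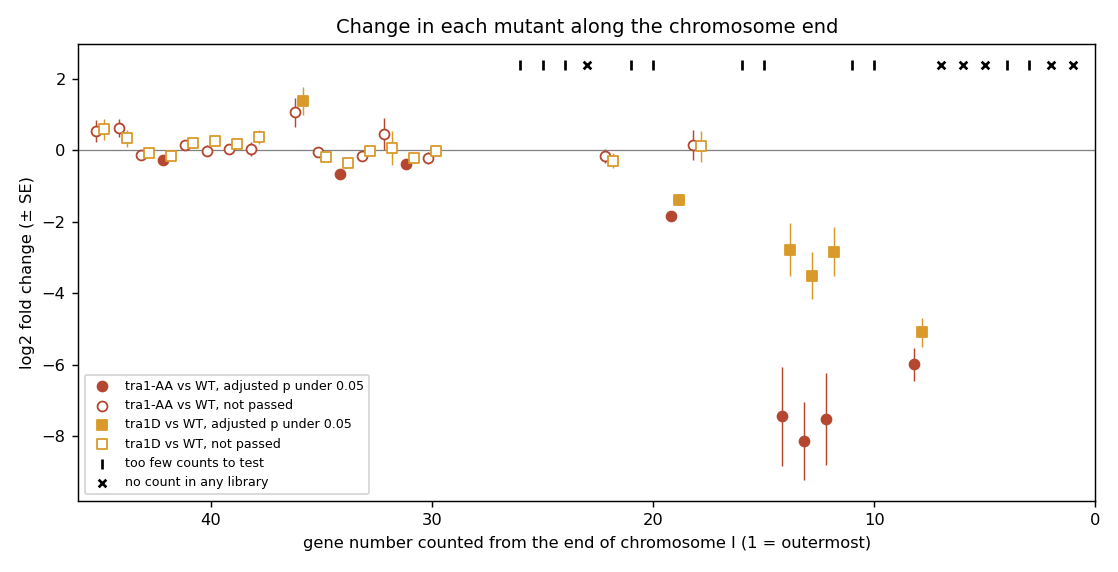
Log2 fold change against WT (vertical axis, bars show the SE) of each tested gene of the gdt1 end, placed by its number in the gene order from the chromosome end (horizontal axis); circles are tra1-AA, squares tra1D, filled symbols passed, and marks at the top show genes that were not tested. The genes numbered 12 to 14 and 8 lie lowest, from -7.45 to -8.14 in tra1-AA for SPAC186.04c, gdt1 and SPAC186.06 and at -5.99 for SPAC750.01. For SPAC186.04c and SPAC186.06, with no count in tra1-AA, the fitted value and its SE depend on the prior count.

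gdt1 encodes a protein of the GDT1 family, whose budding yeast member transports calcium and manganese ions into the Golgi. It had 3, 3 and 0 counts in tra1-AA, 148, 3 and 5 counts in tra1D, and 723, 643 and 505 in WT. Its level averaged 0.283 ± 0.245 CPM in tra1-AA, 7.58 ± 12.1 CPM in tra1D and 86.3 ± 5.76 CPM in WT (SD, n = 3 each). Every mutant library lay below every WT library, and tra1D replicate 1 stood far above the other mutant libraries. Per length of transcript gdt1 stood in place 23 of the 39 genes in tra1-AA, at 0.195 CPM per kilobase, in place 18 in tra1D, at 5.23 CPM per kilobase, and in place 6 in WT, at 59.5 CPM per kilobase. The ratio of normalised counts, WT over tra1-AA, was 301 (95% counting interval 138 to 820), and WT over tra1D was 11.4 (9.71 to 13.6). The log2 fold change was -8.14 in tra1-AA (SE 1.09, edgeR adjusted p = 0.000525) and -3.50 in tra1D (SE 0.66, edgeR adjusted p = 0.00518). In tra1D the log2 fold change of gdt1 was -7.16 without tra1D replicate 1, -2.90 without tra1D replicate 2 and -3.02 without tra1D replicate 3, and it passed in each case. The authors' deposited table lists gdt1 at -4.68 on the log2 scale for tra1-AA, and at -0.17 for tra1D with no adjusted p. DESeq2 run here gave gdt1 -8.26 in tra1-AA and -3.51 in tra1D, with no adjusted p either. Deposited values of other genes with few mutant counts were also smaller in tra1-AA, such as SPAC750.01 (-1.79, against -6.24 in DESeq2 here) and SPAC186.04c (-1.05 against -6.87). The deposited values are thus not a like measure, and the cause was not tested.

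SPAC186.04c, next to gdt1, encodes a protein of unknown role. It had no count in the tra1-AA libraries, 9, 0 and 0 counts in tra1D, and 27, 21 and 19 in WT. With no tra1-AA count, the ratio of normalised counts, WT over tra1-AA, has no upper end, and its 95% counting interval began at 17.0. The fall in tra1-AA passed (edgeR adjusted p = 0.00690). In tra1D the ratio of normalised counts, WT over tra1D, was 7.10 (95% counting interval 3.53 to 16.2), and the log2 fold change of -2.78 passed (SE 0.74, edgeR adjusted p = 0.0395). That call of SPAC186.04c was lost without WT replicate 1, WT replicate 2, WT replicate 3, tra1D replicate 2 (log2 fold change -2.13) or tra1D replicate 3 (-2.29), and without tra1D replicate 1 the value was -7.45. It was also lost in DESeq2 (adjusted p = 0.457).

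SPAC186.06, on the other side of gdt1, is annotated as an isomerase. It likewise had no count in tra1-AA, with 8, 0 and 1 counts in tra1D, and 25, 31 and 14 in WT. The counting interval of its ratio of normalised counts, WT over tra1-AA, began at 17.8. The fall in tra1-AA passed (edgeR adjusted p = 0.00469). In tra1D the fitted log2 value was -2.83, and the fall passed (SE 0.69, edgeR adjusted p = 0.0273). The call of SPAC186.06 in tra1D was lost without WT replicate 1, WT replicate 2, tra1D replicate 2 (-2.18) or tra1D replicate 3 (-2.51), and the value was -5.16 without tra1D replicate 1.

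SPAC750.01, of the aldo/keto reductase family of oxidoreductases, was the outermost gene that could be tested. It had 0, 1 and 1 counts in tra1-AA, 2, 1 and 1 counts in tra1D, and 53, 50 and 52 in WT. The ratio of normalised counts was 74.7 for WT over tra1-AA (95% counting interval 20.3 to 622) and 37.0 for WT over tra1D (14.1 to 137). The log2 fold changes were -5.99 in tra1-AA (SE 0.46, edgeR adjusted p = 9.94e-06) and -5.09 in tra1D (SE 0.41, edgeR adjusted p = 1.33e-05). Of the 50-base windows in its transcript, 32.8% occur elsewhere in the reference genome, so its counts are uncertain where the counting drops such reads.

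Genes between these had few counts. SPAC186.08c, annotated as an L-lactate dehydrogenase, had no count in tra1-AA, 3, 0 and 0 counts in tra1D, and 4, 2 and 0 in WT. SPAC186.07c, annotated as a hydroxyacid dehydrogenase, had none in tra1-AA, 4, 0 and 0 in tra1D, and 0, 0 and 1 in WT. These numbers are too small to tell the groups apart. pdc102, a pyruvate decarboxylase gene left out of the set, lies between SPAC186.08c and SPAC750.01. Its counts were 0, 0 and 0 in tra1-AA, 2, 2 and 1 in tra1D, and 9, 8 and 4 in WT. The counting interval of its ratio of normalised counts, WT over tra1-AA, began at 5.02.

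Beyond SPAC750.01, ftm4 (SPAC750.05c), a gene of a protein with transmembrane helices, had no count in any mutant library and 1, 11 and 8 counts in WT. The counting intervals of its ratios of normalised counts began at 4.76 for WT over tra1-AA and at 4.71 for WT over tra1D. The gene was not tested, since it failed the filter. SPAC750.06c, of unknown role, had no count in the mutants and 0, 3 and 1 counts in WT. Of the 50-base windows of ftm4, 92.4% occur elsewhere in the reference genome, as do 90.6% of those of SPAC750.06c.

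**Figure D2:**
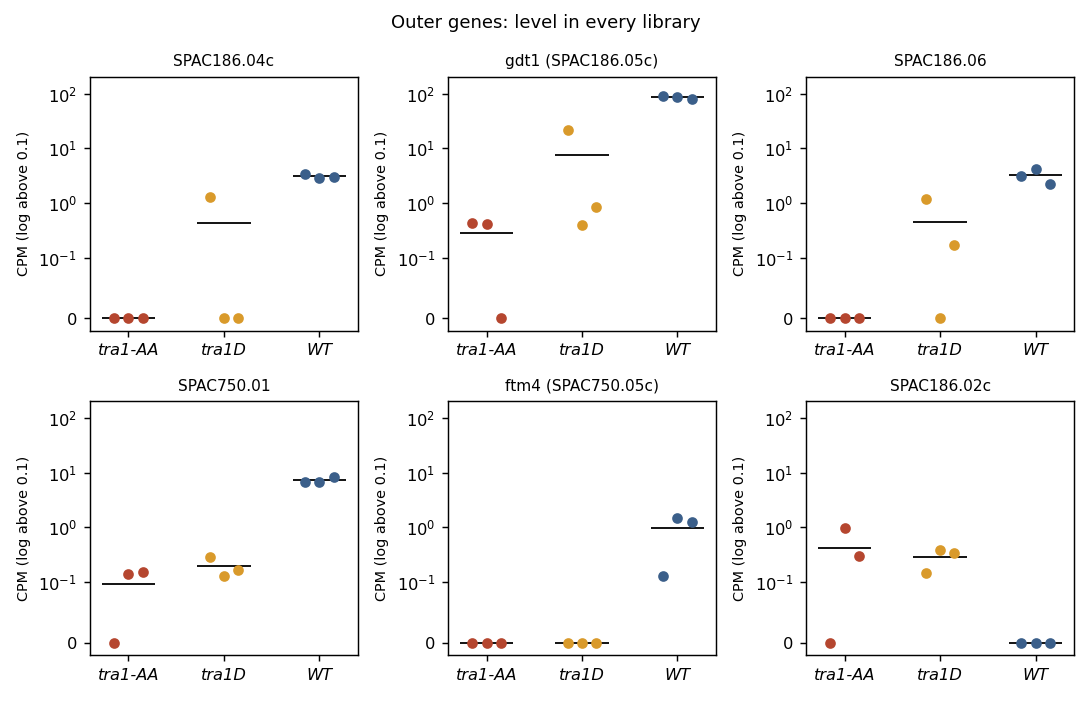
Level in CPM (vertical axis, logarithmic above 0.1 and linear below it) of 6 outer genes in each library, with tra1-AA, tra1D and WT from left to right; points are libraries and lines are means. The WT libraries of gdt1 average 86.3 CPM and tra1D replicate 1 lies at 21.5 CPM, with the other mutant libraries under 1 CPM; SPAC186.02c has counts in mutant libraries and none in WT.

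The tra1D libraries were unlike each other here. Over the 13 genes of the set from SPAC186.04c to the chromosome end, a stretch chosen after its values were seen, counts summed to 3, 4 and 1 in tra1-AA, 174, 4 and 7 in tra1D, and 833, 761 and 600 in WT. Relative to the WT level the sums were 24.9%, 0.509% and 1.15% in the tra1D libraries and between 0.148% and 0.550% in tra1-AA. Without gdt1 the sums were 26, 1 and 2 in tra1D and 110, 118 and 95 in WT, and tra1D replicate 1 then stood at 25.2% of the WT level. In that library gdt1 stood at 24.8% of its WT level (95% counting interval 20.8% to 29.3%), SPAC186.04c at 42.1% (18.4% to 84.8%) and SPAC186.06 at 35.8% (14.9% to 74.5%). SPAC750.01 stood lower there, at 4.04% (0.485% to 14.8%), close to its 1.80% and 2.33% in the other tra1D libraries. The tra1 transcript itself stood at 0.769% of its WT level in tra1D replicate 1, and at 0.274% and 0.355% in replicates 2 and 3. The cause of the difference between the tra1D libraries was not tested.

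Just inside this stretch small counts were seen in the mutants and none in WT. SPAC186.02c, annotated as a hydroxyacid dehydrogenase, had 0, 7 and 2 counts in tra1-AA, 1, 3 and 2 in tra1D, and none in WT. SPAC186.03, annotated as an L-asparaginase, had 0, 2 and 0 counts in tra1-AA, 0, 2 and 0 in tra1D, and none in WT. Both genes lie at or under the limit of detection in several mutant libraries, and neither could be tested. The counts of SPAC186.03 are too small to tell the groups apart. Of the windows of SPAC186.03, 62.0% occur elsewhere in the reference.

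In part of the gdt1 end most 50-base reads cannot be placed at a single site. Each of the 7 genes outside SPAC750.01 shares over 80% of its 50-base windows with another place in the reference genome, and 4 of them share 100%. Of these 7 genes, 5 had no count in any of the 9 libraries: SPAC750.02c (a transporter gene), SPAC750.03c (methyltransferase), ftm3 (SPAC750.04c), SPAC750.07c (unknown) and SPAC750.08c (NAD-dependent malic enzyme). Among all genes counted, 33 of the 41 whose windows are all repeated had no count, as had 38 of the 76 with over 80% repeated windows and 16 of the 4902 with no repeated window. So a count of 0 in these 5 genes does not say whether they are transcribed. The sixth gene of the set without a count, hry1 (SPAC869.06c), which encodes a protein with a cation-binding HHE domain, is 1 of the 30 genes of the set with no repeated window, as are gdt1, SPAC186.04c and SPAC186.06.

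**Figure D3:**
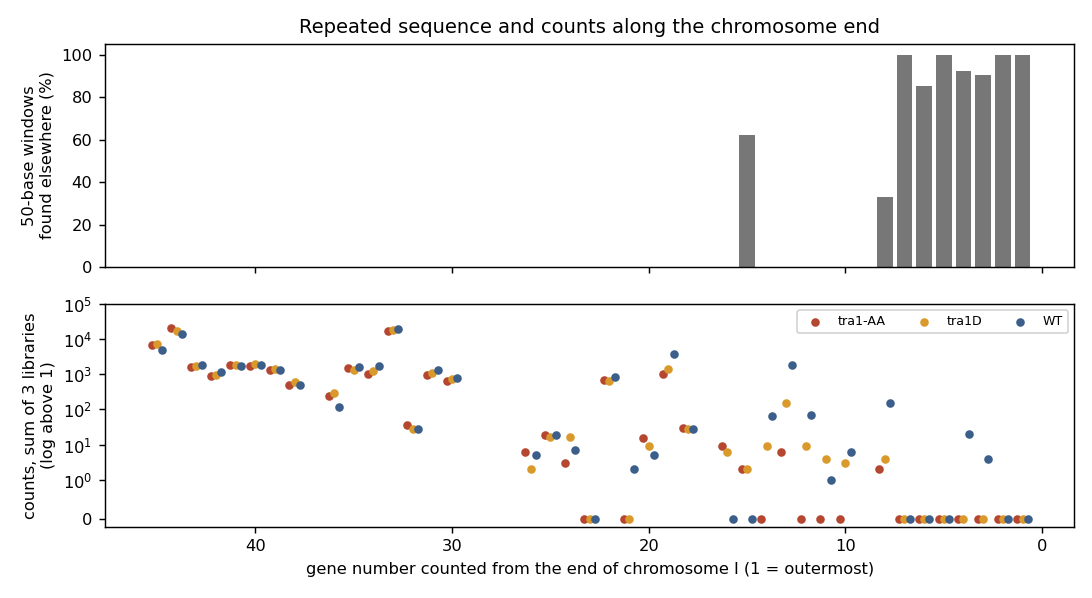
Upper panel: percentage of the 50-base windows of each gene's exons that occur elsewhere in the reference genome. Lower panel: counts summed over the 3 libraries of tra1-AA, tra1D and WT (vertical axis logarithmic above 1), both placed by gene number from the chromosome end; the 7 outermost genes exceed 80% repeated windows and 5 of them have no count in any genotype.

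Among the enzyme genes farther in, yhb1 (SPAC869.02c) had the largest fall in both mutants. It had 46.0, 57.6 and 46.9 CPM in tra1-AA, 64.7, 64.2 and 79.5 CPM in tra1D, and 174, 157 and 210 CPM in WT. The groups did not overlap, and the lowest WT library stood well above the highest mutant library. The log2 fold changes were -1.84 in tra1-AA (SE 0.13, edgeR adjusted p = 3.93e-06) and -1.38 in tra1D (SE 0.12, edgeR adjusted p = 3.67e-05). Per length yhb1 was in place 10 of the 39 genes in tra1-AA, with 25.1 CPM per kilobase, in place 9 in tra1D, with 34.7 CPM per kilobase, and in place 3 in WT, with 90.1 CPM per kilobase.

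SPAC922.03 is annotated as a 1-aminocyclopropane-1-carboxylate deaminase, an enzyme type that releases ammonia from a cyclic amino acid. It had 54.4, 46.3 and 47.8 CPM in tra1-AA, 60.3, 64.5 and 59.7 CPM in tra1D, and 81.5, 86.8 and 65.9 CPM in WT. All mutant libraries lay below all WT libraries. It fell in tra1-AA, where the log2 fold change was -0.66 (SE 0.11, edgeR adjusted p = 0.00200). In tra1D the value of SPAC922.03 was -0.35 (SE 0.11) and missed the threshold (edgeR adjusted p = 0.0549), but passed in DESeq2 (adjusted p = 0.0381), without WT replicate 3 (log2 fold change -0.45, edgeR adjusted p = 0.00878) and without tra1-AA replicate 1 (edgeR adjusted p = 0.0438).

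Several genes of the end encode carriers in the cell membrane, by which the cell takes up nutrients. The transporter gene SPAC922.05c had 43.5, 48.7 and 47.1 CPM in tra1-AA, 56.5, 49.3 and 50.5 CPM in tra1D, and 61.1, 59.1 and 60.0 CPM in WT. It fell in tra1-AA (log2 fold change -0.37, SE 0.08, edgeR adjusted p = 0.0124), a call lost without WT replicate 1 (edgeR adjusted p = 0.0544). In tra1D its value was -0.21 (SE 0.08, edgeR adjusted p = 0.138).

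SPAC1039.04, annotated as a carboxylic acid transporter, had 44.4, 45.6 and 42.1 CPM in tra1-AA, 46.3, 46.0 and 49.8 CPM in tra1D, and 52.1, 53.2 and 52.9 CPM in WT. Neither mutant overlapped with WT. In tra1D its value was -0.16 (SE 0.08, edgeR adjusted p = 0.228). In tra1-AA its log2 fold change of -0.26 (SE 0.08) passed narrowly (edgeR adjusted p = 0.0442). This call of SPAC1039.04 was lost when any 1 of the 9 libraries was left out (edgeR adjusted p = 0.0518 to 0.127), in DESeq2 (adjusted p = 0.0634) and with a replicate block of the WT and tra1-AA libraries (edgeR adjusted p = 0.0732).

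The amino acid permease gene SPAC1039.01 and the sulfate transporter gene sul2 (SPAC869.05c) did not pass in either mutant. SPAC1039.01 had 384, 386 and 211 CPM in tra1-AA, 338, 369 and 303 CPM in tra1D, and 282, 277 and 112 CPM in WT. Replicate 3 was the lowest library of each genotype. The log2 fold change of SPAC1039.01 was 0.55 in tra1-AA (SE 0.30, edgeR adjusted p = 0.236) and 0.59 in tra1D (SE 0.30, edgeR adjusted p = 0.227). sul2 had 35.4, 41.9 and 23.9 CPM in tra1-AA, 29.9, 24.7 and 39.4 CPM in tra1D, and 41.3, 35.5 and 36.8 CPM in WT, with overlapping groups. The urea transporter gene SPAC869.03c had too few counts to test, with 6, 7 and 2 in tra1-AA, 0, 3 and 6 in tra1D, and 1, 0 and 4 in WT.

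mmf2 (SPAC1039.10), annotated as a Pmf1-like isoleucine synthesis protein, was the tested gene of the set that rose. It had 13.9, 14.5 and 4.81 CPM in tra1-AA, 13.5, 16.6 and 11.6 CPM in tra1D, and 6.69, 6.55 and 2.38 CPM in WT. The tra1D libraries all lay above the WT libraries, while tra1-AA replicate 3 lay within the WT range. The log2 fold change was 1.39 in tra1D (SE 0.40, edgeR adjusted p = 0.0439) and 1.07 in tra1-AA (SE 0.41, edgeR adjusted p = 0.0969). The tra1D call of mmf2 was lost without any 1 of the tra1D or WT libraries (log2 fold change 1.08 to 1.61). mmf2 overlaps the gene gto1 on the other strand, and since the strand setting of the counting is not given, reads of the overlap cannot be assigned with certainty. In all, 27 of the 39 genes overlap another annotated gene, while gdt1, SPAC186.04c and SPAC186.06 overlap none.

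Deviations of same-numbered tra1-AA and WT libraries from their group means correlated at 0.109, 0.357 and 0.215. With a replicate block of those libraries, chosen after seeing the data, 3 genes of the set rose in tra1-AA, where none did without it. Over all genes 404 rose and 499 fell with this block. Without a block 239 rose and 313 fell in the WT and tra1-AA libraries alone, and 390 and 391 in the main fit of all 9 libraries. The 3 genes were mmf2 (log2 fold change 1.08, edgeR adjusted p = 0.00544), SPAC1039.02 (0.61, edgeR adjusted p = 0.000935) and SPAC1039.01 (0.59, edgeR adjusted p = 0.00116). SPAC1039.02, annotated as a phosphoprotein phosphatase, had 1156, 1196 and 659 CPM in tra1-AA, 936, 919 and 604 CPM in tra1D, and 749, 732 and 461 CPM in WT. Without the block its log2 fold change was 0.63 in tra1-AA (SE 0.24, edgeR adjusted p = 0.0998). Without tra1-AA replicate 3, SPAC1039.02 had a value of 0.86 (edgeR adjusted p = 0.0283) and mmf2 of 1.42 (edgeR adjusted p = 0.0182), and both passed.

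**Figure D4:**
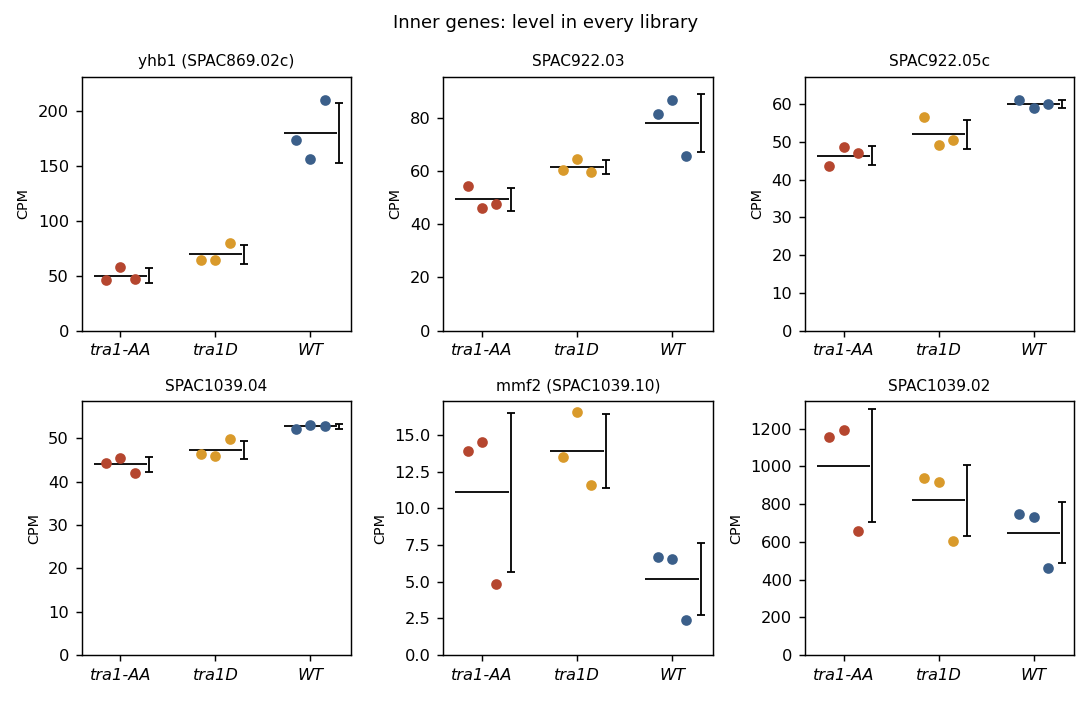
Level in CPM (vertical axis, from 0) of 6 inner genes in each library, with tra1-AA, tra1D and WT from left to right; points are libraries, lines are means and bars the SD of 3 libraries. yhb1 averages 50.2 CPM in tra1-AA, 69.5 CPM in tra1D and 180 CPM in WT, while mmf2 and SPAC1039.02 have their lowest library in replicate 3 of each genotype.

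The other tested genes did not pass in either mutant. They were klf1 (SPAC1039.05c), a zinc-finger transcription factor gene, SPAC1039.03 (esterase/lipase), SPAC1039.06 (D-serine ammonia-lyase), SPAC1039.07c (alanine-glyoxylate transaminase), SPAC1039.08 (serine acetyltransferase) and gto1 (SPAC1039.11c, alpha-glucosidase). SPAC922.04 and SPAC922.09 (both unknown), SPAC922.06 (3-oxoacyl-ACP reductase), SPAC869.01 (amidase) and sul2 completed the group. Of the 14 genes that did not pass in tra1-AA, 6 had log2 fold changes below 0, and the 14 spanned -0.22 to 1.07. Of the 16 that did not pass in tra1D, 8 were below 0 and the range was -0.35 to 0.59. SPAC922.04 had the highest level per length of the set in each genotype, with 1260 CPM per kilobase in tra1-AA, 1366 in tra1D and 1389 in WT. SPAC1039.02 came next in each, with 508, 415 and 328 CPM per kilobase in tra1-AA, tra1D and WT.

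Genes of the SPAC869 clone beside yhb1 were low in all genotypes. pcm2 (SPAC869.08), the gene of a methyltransferase that repairs damaged aspartyl residues in proteins, had 5, 8 and 6 counts in tra1-AA, 3, 6 and 8 in tra1D, and 10, 4 and 5 in WT. mel1 (SPAC869.07c), the gene of a melibiase, an enzyme that splits melibiose, had 0, 1 and 2 counts in tra1-AA, 5, 2 and 10 in tra1D, and 3, 0 and 4 in WT. The groups overlap for both genes. The Con-6 family gene SPAC869.09 had 0, 3 and 3 counts in tra1-AA, 1, 1 and 0 in tra1D, and 0, 2 and 3 in WT, and the formamidase-like gene SPAC869.04 had none in the mutants and 0, 1 and 1 in WT.

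Between the mutants, none of the 22 genes passed in tra1-AA against tra1D (edgeR, lowest adjusted p = 0.999; 4 at an unadjusted p under 0.05, none by DESeq2). Over all genes 0.0407% passed, 0.0204% lower and 0.0204% higher. gdt1 had a log2 fold change of -4.64 (SE 1.56) in tra1-AA against tra1D, which was -0.98 without tra1D replicate 1. SPAC186.06 had 0 counts in tra1-AA and 9 in tra1D, of which 8 were in tra1D replicate 1. The counting interval of its ratio of normalised counts, tra1D over tra1-AA, began at 1.995. yhb1 lay lower in tra1-AA, with no overlap of the libraries and a log2 fold change of -0.46 (SE 0.13), and SPAC922.03 stood at -0.31 (SE 0.11). In 5 of the 22 genes the tra1-AA libraries lay wholly below those of tra1D and in 0 wholly above, where 4.4% and 4.66% of all genes tested did so. A p above the threshold does not show that the mutants act alike.

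The 6 genes left out of the set hold places among these genes. The amino acid transporter gene isp5 (SPAC1039.09) rose in tra1-AA (log2 fold change 1.56, SE 0.35, edgeR adjusted p = 0.0130) and in tra1D (1.86, SE 0.35, edgeR adjusted p = 0.00576), while the arginine and lysine transporter gene cat1 (SPAC869.11) fell in both (-0.95 and -0.93, edgeR adjusted p = 0.000288 and 0.000340). atd2, put4 and pfl9 did not pass, and pdc102 had too few counts.

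Inward of the gdt1 end, of the next 40 genes in annotation order, 39 were tested, and in tra1-AA 3 fell and 2 rose, with log2 fold changes from -0.62 to 0.43 over the 39 and a median of 0.04. The share called was 12.8% of the neighbours, beside 15.9% of all genes tested. In tra1D 2 fell and 1 rose, with a range of -0.58 to 0.85 and a median of 0.02, and 7.69% were called, beside 11.5% of all genes tested. At other chromosome ends, 77 genes of 7 clone groups were listed, of which 36 were tested. Of the 36, 19 fell and 2 rose in tra1-AA, with a median of -1.09 and a lowest value of -3.55 (nrg1), where 7.96% of all genes tested fell and 7.94% rose. In tra1D 11 fell and 3 rose, with a median of -0.57 and a lowest value of -2.69 (SPBPB10D8.02c), where 6.35% of all genes tested fell and 5.17% rose. None of the 36 reached the values of gdt1 and SPAC750.01, which could pass the filter only through WT. The WT levels of the 36, which limit how large a fall can be seen, were not compared.

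Of 27 genes listed for roles in silencing, in its control or at telomeres, 1 (3.70%) passed in each mutant. Over all genes tested 15.9% passed in tra1-AA and 11.5% in tra1D. The listed gene that passed was set2, which encodes a histone methyltransferase, with -0.28 in tra1-AA (SE 0.06, edgeR adjusted p = 0.00738) and -0.21 in tra1D (SE 0.06, edgeR adjusted p = 0.0322). All 27 lay between -0.28 and 0.19 in tra1-AA and between -0.34 and 0.27 in tra1D. set2 is also 1 of the 40 inward neighbours.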

How the data were processed

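Per the submitters' processing notes, HISAT2 2.1.0 aligned the reads and HTSeq 0.9.1 counted them; the authors deposited these counts unnormalised. The deposited comparison tables (DESeq2 1.18.1, by the authors) hold each gene's log2 fold change and p-value. Genome build and strand setting: not given in the sources used here. Coordinates and sequences are therefore not printed. Names, gene order and 50-base windows came from the RefSeq annotation of ASM294v3, in which all 39 genes were matched by locus tag.

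One edgeR 4.0.16 quasi-likelihood fit (R 4.3.3, TMM factors, filterByExpr with minimum count 10 and total 15, 4913 genes) covered all 9 libraries, with Benjamini-Hochberg adjustment at 0.05. Ratios of counts have exact 95% intervals. Each SE was derived as the size of the log2 fold change over the square root of its test's F value. All per-library values of called or rarely counted genes are given, and the others by range. Members and lists were chosen with earlier results of these data known. Replicates were not copies (chi-square per degree of freedom 8.41 to 28.8). Deviations of same-numbered samples correlated at 0.109, 0.357 and 0.215 between tra1-AA and WT, but at -0.116 to -0.0103 between tra1D and WT and -0.203 to -0.0171 between the mutants. The fit was tested on simulated data. Alternatives were DESeq2 1.42.0, RLE factors, library totals, no filter, a mean of at least 10 counts, the 2 groups alone, a replicate block, and each library left out. Per-sample columns not used numbered 0.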

Additional observations from a re-analysis of the deposited data

How the results depend on the processing

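The 8 falls in tra1-AA stayed between 6 and 8 under every alternative run. The count of rises in tra1-AA, 0 in the fit reported, was 1 in DESeq2, 2 with a replicate block of all libraries and 3 with a replicate block of the WT and tra1-AA libraries alone (chosen after seeing the data), and 0 to 2 with a library left out. The 5 falls in tra1D were 3 with a mean of at least 10 counts, since that filter removes SPAC186.04c and SPAC186.06, and 3 to 6 with a library left out. The rise in tra1D was 3 with the replicate block and 0 to 1 with a library left out. Deviations of same-numbered tra1D and WT libraries from their group means correlated at -0.116 to -0.0103. The labels do not say whether the numbers pair the samples. The counts between the mutants were 0 throughout. In tra1-AA against tra1D, SPAC1039.01 (-0.04) ranged from -0.19 to 0.19 with a library left out, turning without tra1D replicate 2 (0.03) and tra1-AA replicate 3, and mmf2 from -0.58 to 0.026, turning without tra1-AA replicate 3; the cause was not tested. Of 525 values of single genes, 477 kept direction and call, 32 lost and 13 gained a call, and 3 turned. SPAC186.04c gave no value between the mutants without tra1D replicate 1, where no count is left, and DESeq2 gave no adjusted p for gdt1. Over all genes, falls in tra1-AA numbered 391 (220 to 432 with a library left out) and rises 390 (144 to 413, and 239 with the 2 groups alone). In tra1D falls numbered 312 (168 to 355, and 206 with library totals) and rises 254 (100 to 300). With library totals rises made up 59.7% of the calls in tra1-AA and 64.9% in tra1D, against 49.9% and 44.9%. The median log2 fold change of the set in tra1D was 0.03 with library totals. At this depth 11 genes of the set had too few counts to test, and for genes of repeated sequence a count of 0 does not say whether they are transcribed.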
